A study of Mus musculus with 30 samples.

Results

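Pax5 and Pou2af1 are a pair of genes that mark commitment to the B lineage, and their transcripts and chromatin were followed across mouse precursor cells arrested by loss of E2A, EBF1 or RAG1. The array carried 3 probes named for these genes, 2 for Pax5 and 1 for Pou2af1, of 41174 probes in all, and both genes were among the 12788 kept for testing. The ChIP-seq peak lists held 51 peaks within 20 kb of the Pax5 gene body and 8 within 20 kb of Pou2af1, of 323966 peaks in 24 lists. Members were taken by gene name on the array and by position in the genome, with earlier results of these data known.

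PAX5 is a paired-domain transcription factor that switches on B cell genes such as those of the B cell receptor complex and switches off genes of other blood lineages. EBF1 and E2A act above it in early B cell development, and Pax5 is read from alternative first exons. Pou2af1 encodes OCA-B (also called OBF-1 or Bob.1), a coactivator without DNA-binding specificity of its own that joins the octamer-binding factors OCT1 and OCT2 at B cell promoters.

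The RNA came from 3 groups of C57BL/6 cells with 2 samples each. Pre-pro-B cells of either mutant genotype, E2A-/- or EBF-/-, grew on the stromal line S17 with IL-7, SCF and FLT3 ligand. RAG1-/- pro-B cells were enriched from femoral marrow by B220, a surface form of CD45, then grown for 10 d in IL-7 and SCF. RAG1-/- cells cannot cut their antigen receptor genes and stop as committed pro-B cells. Culture and genotype changed together in RAG1-/- cells, and their effects cannot be told apart. Whether replicates were independent animals or cultures is not stated, so p-values measure the spread between these samples, which may be technical. In bulk RNA, fewer cells with a transcript and less transcript per cell also cannot be told apart.

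ChIP-seq lists covered E2A and 5 histone marks in EBF-/- cells, and the same with EBF1, FOXO1 and CTCF in RAG1-/- cells. Further lists came from E2A-/- cells and from A12, a T cell line labelled as lacking E2A, after infection with a retrovirus carrying E47-ER or bHLH-ER and selection for its human CD25 tag. E47-ER is the E2A protein E47 fused to the ligand-binding part of the estrogen receptor, and bHLH-ER lacks the transactivation domains. Tamoxifen (1 µM) was added for 1 or 6 h after 21 h of culture. Each list was 1 library, so no difference between lists has a replicate check or a test.

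The promoters of both genes are shown because the histone marks at the gene starts, described further on, differed between the genes. They are the RefSeq promoters of assembly GRCm38.p6, each with 250 bases before and 50 after the annotated start and written 5′ to 3′ on the gene's own strand. Capitals mark matches to an E-box (CANNTG, the site type that E2A binds) or to 7 bases of the octamer (TGCAAAT or its reverse complement).
Pax5, chr4:44710645-44710944, minus strand: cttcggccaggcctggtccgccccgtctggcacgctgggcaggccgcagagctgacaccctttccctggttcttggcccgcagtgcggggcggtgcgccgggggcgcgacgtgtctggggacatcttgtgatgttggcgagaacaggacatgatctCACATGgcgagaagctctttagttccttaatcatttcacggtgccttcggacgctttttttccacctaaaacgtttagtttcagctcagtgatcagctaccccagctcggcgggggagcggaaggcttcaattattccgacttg
Pou2af1, chr9:51213440-51213739, plus strand: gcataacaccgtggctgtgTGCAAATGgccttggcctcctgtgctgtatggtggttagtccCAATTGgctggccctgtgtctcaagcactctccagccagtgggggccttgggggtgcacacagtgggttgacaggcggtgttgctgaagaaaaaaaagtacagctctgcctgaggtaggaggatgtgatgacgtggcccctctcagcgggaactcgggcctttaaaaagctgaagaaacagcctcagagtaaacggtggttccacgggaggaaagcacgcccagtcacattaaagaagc

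The Pax5 promoter held 1 E-box and the Pou2af1 promoter 2, and 72.3% of the 32851 promoters in the RefSeq table held at least 1. Neither held CAGNTG (an E-box form favoured by E2A, searched on both strands), which 51.4% of promoters held. The Pou2af1 promoter held 1 TGCAAAT, found in 4.02% of promoters, and this match overlapped 1 of its E-boxes by 5 bases. Neither held the EBF1 core CCCNNGGG (13.7% of promoters), the FOXO core GTAAACA (3.65%) or the full octamer ATGCAAAT (1.74%). A match is a run of letters in these 300 bases and says nothing on binding.

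Pax5 transcript was high in both RAG1-/- samples and low in all 4 pre-pro-B samples. The brighter Pax5 probe lies at the 3′ end of the gene (chr4:44546164-44546223, minus strand, mm8) and was designed on the cDNA AK040987. Its normalized log2 signal reached 14.22 and 14.01 in RAG1-/- replicates 1 and 2, against 9.37 and 6.83 in those of E2A-/- cells and 7.03 and 6.54 in those of EBF-/- cells. The RAG1-/- samples stood far above all others, while the E2A-/- and EBF-/- ranges overlapped and E2A-/- replicate 2 was not well above background. RAG1-/- cells exceeded EBF-/- cells by 7.35 on the log2 scale (SE 0.69, n = 2 per group, limma adjusted p = 0.00247), a 163-fold difference. They exceeded E2A-/- cells by 6.02 (SE 0.69, limma adjusted p = 0.0036).

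The second Pax5 probe matches the transcript NM_008782 and joins exons that lie 32555 bases apart from end to end in mm8 (chr4:44558582-44591136). Its log2 signal in replicates 1 and 2 was 8.60 and 8.13 for RAG1-/-, 4.98 and 5.55 for E2A-/- and 4.99 and 3.77 for EBF-/- cells. As with the 3′ probe, both RAG1-/- samples lay above all others, and outside RAG1-/- cells only E2A-/- replicate 1 was well above background. Its signal was below that of E2A-/- replicate 2 and level with that of EBF-/- replicate 1. The lowest log2 signal flagged as well above background was 3.92 in E2A-/- replicate 1, against 6.86 in E2A-/- replicate 2 and 6.25 in EBF-/- replicate 1. That flag therefore shows no excess of Pax5 signal in E2A-/- replicate 1. The probe passed the brightness filter through RAG1-/- cells alone, which favours a difference, and its values describe the same gene rather than add support. RAG1-/- signal was at least 6.21-fold that of EBF-/- cells, with limma adjusted p = 0.00786 over all 22133 probes kept. Against E2A-/- cells the difference was 3.08 on the log2 scale (SE 0.56, limma adjusted p = 0.0155).

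Pou2af1 showed one of the widest differences on the array. Its probe, designed on NM_011136, lies at the 3′ end of the gene (chr9:50992233-50992292, plus strand, mm8). Log2 signal in replicates 1 and 2 was 17.58 and 16.99 for RAG1-/-, 5.24 and 5.41 for EBF-/- and 11.35 and 3.32 for E2A-/- cells. The EBF-/- samples lay close together near background (replicate 1 not well above it), whereas the E2A-/- replicates lay 8.03 apart and enclosed them. The RAG1-/- excess was 12.04 over EBF-/- (SE 2.31, limma adjusted p = 0.016) and 9.99 over E2A-/- (SE 2.33, limma adjusted p = 0.0261). Both ranked second from the top among 12788 genes, where Pax5 ranked 44 and 109. Pou2af1 passed the brightness filter through RAG1-/- cells alone, and the size of its change rests partly on dim samples.

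**Figure D1:**
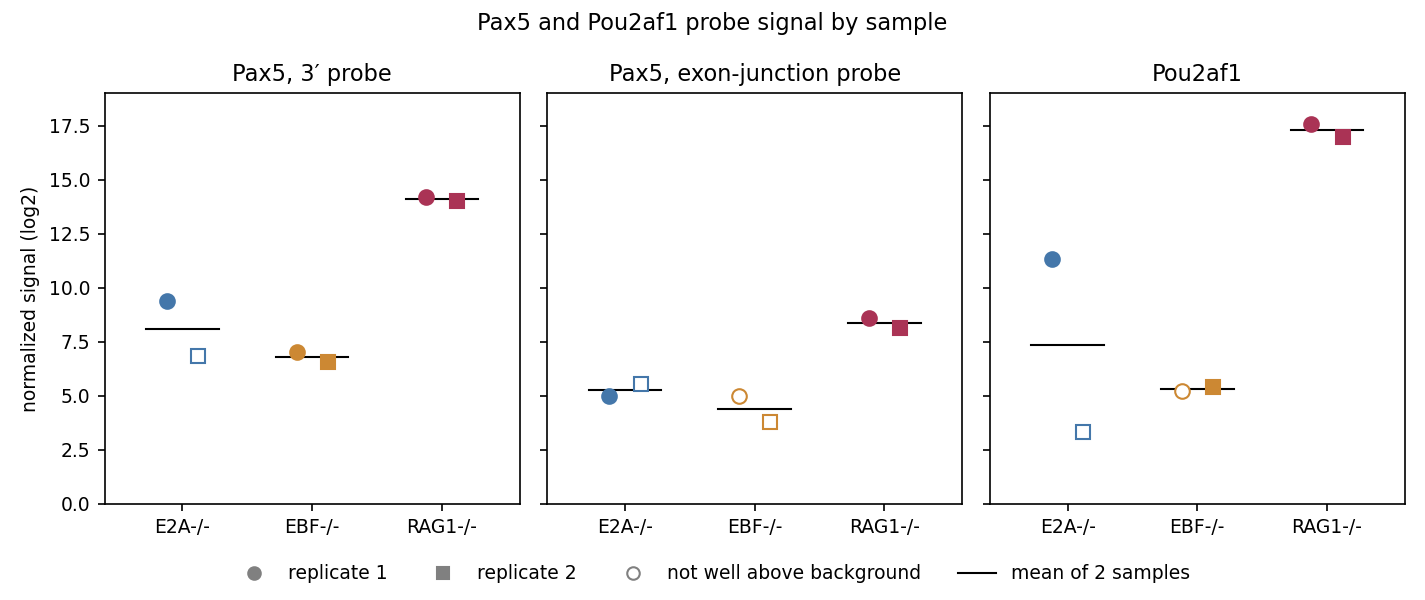
Normalized log2 signal (vertical axis) of each of the 3 probes in the 2 samples of each group, with open symbols where the probe was not well above background and a line at the group mean. RAG1-/- samples lie above all others in each panel, and E2A-/- replicates lie 8.03 apart for Pou2af1; levels are not comparable between panels.

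Thus 2 of 2 genes were higher in RAG1-/- cells in both comparisons. For Pou2af1, kept through RAG1-/- cells alone, the calls and ranks are a description and add no support. Over all 12788 genes, 21.2% were higher and 22.6% lower in RAG1-/- than in EBF-/- cells, and 22.8% were higher and 23% lower than in E2A-/- cells. A call alone is therefore common here, and it is the size of the change that placed both genes near the top. Leaving out single samples kept the direction for Pax5, with differences of 6.471 to 8.207 over EBF-/- and 4.809 to 7.203 over E2A-/-. The lowest and highest came without RAG1-/- replicates 1 and 2 for the first and without E2A-/- replicates 2 and 1 for the second. With 1 RAG1-/- sample left, that group holds 1 dye only, so the difference also takes in the dye term. That term then rests on the replicate gaps of the other groups, for Pax5 2.54 (E2A-/-) and 0.49 (EBF-/-). The RAG1-/- samples themselves lay 0.21 apart. The Pou2af1 calls were less firm. Over EBF-/- the call was lost without RAG1-/- replicate 1 (9.731) or EBF-/- replicate 1 (10.05), with values up to 14.31 without RAG1-/- replicate 2. The dye term enters these fits as for Pax5. The difference was 11.96 without E2A-/- replicate 1 and also without E2A-/- replicate 2. With only RAG1-/- and EBF-/- samples in the fit it was 11.96 with an SE of 0.163 (limma adjusted p = 0.000155). The SE of 2.31 with all samples thus draws on the E2A-/- replicates. Over E2A-/- the call was lost without RAG1-/- replicate 1 (7.721), and the difference was 14.16 without E2A-/- replicate 1 and 5.745 without E2A-/- replicate 2.

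Between the pre-pro-B groups, neither gene passed the test. The EBF-/- minus E2A-/- difference was -1.33 on the log2 scale for Pax5 (95% interval -3.17 to 0.51, limma adjusted p = 0.238) and -2.05 for Pou2af1 (95% interval -8.24 to 4.14, limma adjusted p = 0.586). EBF-/- cells had 12.6% of all genes higher and 11.6% lower. Both results turned on the E2A-/- replicates: without replicate 2 the differences were -2.516 and -6.22 (limma adjusted p = 0.0171 and 0.00331), and without replicate 1 they were -0.1221 and 2.194 (limma adjusted p = 0.838 and 0.0169). In that last fit, Pou2af1 signal in the remaining E2A-/- sample was not well above background.

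E2A-/- replicate 1 stood apart in B lineage signal. It shared its array with RAG1-/- replicate 1, and on that array its Pou2af1 signal was 1.30% of the RAG1-/- signal and its Pax5 signals 3.31% and 8.24%. For 7 pro-B and B cell markers the share had a median of 3.36%. All 7 markers were over 2-fold brighter in replicate 1 than in replicate 2, with a median log2 gap of 3.09, against 0.01 over all genes, of which 782 were over 2-fold brighter and 258 over 2-fold dimmer. The Pou2af1 gap was reached by 7 of 12788 genes and the Pax5 gap of 2.54, from the 3′ probe, by 207. The second Pax5 probe went the other way, at log2 4.98 in replicate 1 and 5.55, not well above background, in replicate 2. In replicate 1 all 7 markers were well above background, in replicate 2 only 3. The channels differed in what was flagged so: the lowest such log2 signal was 3.92 in replicate 1 and 6.86 in replicate 2. Of all spots, 61.8% and 40.9% were flagged. Cd79a (5.61) and Cd22 (6.32) in replicate 1 lay below the lowest such signal of replicate 2, so the marker counts are not on equal terms. The part of the shared array or of other cells in these values was not tested.

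Marker lists of other cell types differed between groups as well. The log2 of the summed signal of the 7 pro-B markers was 19.55 to 19.77 in RAG1-/-, 11.61 to 13.96 in E2A-/- and 11.43 to 11.45 in EBF-/- samples. That of 7 myeloid markers was 16.51 to 16.60 in E2A-/-, 15.28 to 15.31 in EBF-/- and 12.15 to 15.58 in RAG1-/- samples, with Elane not well above background outside RAG1-/- replicate 2. That of 5 NK markers was 12.88 to 12.89 in E2A-/-, 13.42 in both EBF-/- and 8.29 to 8.92 in RAG1-/- samples, with Ncr1 at background throughout. Of 6 T cell markers, 4 or 5 were well above background in the pre-pro-B samples and 2 in RAG1-/- samples, and Cd3d was above it in no sample. Their summed signals were 10.99 to 11.17 (E2A-/-), 14.01 to 14.18 (EBF-/-) and 12.26 to 12.40 (RAG1-/-). These sums followed Lck, at log2 9.81 and 9.90, 13.96 and 13.80, and 12.35 and 12.22. Cd3e passed in no comparison. Between E2A-/- and RAG1-/- samples Cd28 and Gata3 went the other way, at 8.45 to 9.30 in E2A-/- and 3.39 to 3.92, not well above background, in RAG1-/- samples. Of 6 stromal markers, Col1a1, Col3a1, Cxcl12 and Vcam1 were above it in no sample, but Pdgfrb reached log2 12.96 and 12.75 in EBF-/- samples against 7.60 to 8.06 in the others, and the summed stromal signal was 12.79 to 12.99 in EBF-/- and 8.57 to 9.10 elsewhere. Of 4 mast cell markers, Cpa3 lay at 10.53 to 10.54 in both EBF-/- samples and RAG1-/- replicate 2, at 4.95 in RAG1-/- replicate 1, and not well above background in E2A-/- samples. The part of such cells in the results below was not tested.

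Among 11 regulators that act upstream of Pax5, 6 were higher and 1 lower in RAG1-/- than in EBF-/- cells, with a median difference of 1.07 against 0.04 for all genes. Against E2A-/- cells 7 were higher and 2 lower, with a median of 1.04 against 0.03. Of all genes, 21.2% were higher and 22.6% lower than in EBF-/- cells, and 22.8% and 23% than in E2A-/- cells. Foxo1, a forkhead factor of the pro-B stage, rose by 5.57 over EBF-/- (SE 0.44, limma adjusted p = 0.00174) and by 6.15 over E2A-/-. Irf4, an interferon regulatory factor of B cells, rose by 5.17 and 6.00. Ebf1 and Tcf3 (the gene of E2A) were only 1.62 and 1.46 above EBF-/- cells, at the threshold (limma adjusted p = 0.0497 and 0.0491), but 6.32 and 4.73 above E2A-/- cells. Whether these probes fall inside the deleted exons is not given, so the remaining Ebf1 signal in EBF-/- cells (log2 10.9 in both) checks no label. Tcf3 in E2A-/- and Ebf1 in EBF-/- cells are the mutated genes themselves. The part of the mutation in their calls against those cells cannot be told apart, and the counts above include them.

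Il7r, the IL-7 receptor chain, was 1.61 above E2A-/- cells (limma adjusted p = 0.00238) and 0.02 above EBF-/- cells (limma adjusted p = 0.937). Spi1, encoding the myeloid and B cell factor PU.1, differed by -1.17 from E2A-/- cells on the log2 scale (limma adjusted p = 0.0245) and did not pass against EBF-/- cells. Stat5a, a transducer of IL-7 signals, passed in neither comparison. Irf8, a relative of Irf4, was 1.07 and 0.67 higher. Without E2A-/- replicate 1 the calls of Spi1 (-1.04) and Irf8 (0.87) against E2A-/- cells were lost, and the median of the 11 was 1.14. Between EBF-/- and E2A-/- cells 3 of the 11 were higher (Tcf3, Ebf1 and Il7r) and none lower, beside 12.6% and 11.6% of all genes. Tcf3 is the gene mutated in E2A-/- cells, so its call here cannot be told apart from the mutation itself.

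Genes that PAX5 is known to activate were mostly higher in RAG1-/- cells. Of 16 listed, 14 were kept (Cr2 and Fcer2a, receptors of later B cells, were not). Against EBF-/- cells 12 were higher and 1 lower, beside 21.2% and 22.6% of all genes, with a median of 3.77. Against E2A-/- cells 11 were higher and 1 lower, beside 22.8% and 23% of all genes, with a median of 3.63. Of the 14, 4 passed the brightness filter through RAG1-/- cells alone, Cd79a, Lef1 and Ikzf3 among them. This favours a difference, and the counts are a description. Without E2A-/- replicate 1 the medians were 3.75 and 4.24.

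Cd79a, a signalling chain of the B cell receptor, was at least 24.6-fold higher than in EBF-/- cells and 5.98 higher on the log2 scale than in E2A-/- cells. Blnk, the adaptor that links the receptor to its kinases, rose by 6.94 and 6.20. Lef1, a Wnt-pathway transcription factor of pro-B cells, rose by 9.67 and 9.06, and Ikzf3, encoding Aiolos, by 2.83 and 1.99. Cd72, an inhibitory coreceptor, rose by 1.22 and 2.22. Cd55, a complement regulator, was 0.80 above EBF-/- cells (limma adjusted p = 0.179) and 2.90 above E2A-/- cells. Bank1, a scaffold of B cell signalling, was the member that fell, with differences of -1.79 and -4.11.

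Genes that PAX5 is known to repress were mostly lower. Of 14, 10 were lower and none higher than in EBF-/- cells, beside 22.6% and 21.2% of all genes, with a median of -2.10. Against E2A-/- cells 10 were lower and 1 higher, beside 23% and 22.8% of all genes, with a median of -3.19. Cd28 and Ccr2 passed the brightness filter only through the pre-pro-B groups, where they are high, and these counts too are a description. Without E2A-/- replicate 1 the medians were -2.10 and -3.78. Flt3, a receptor of early progenitors, differed by -5.57 and -6.48 (SE 0.10 each, limma adjusted p = 0.000381 and 0.00024). FLT3 ligand was supplied only to the pre-pro-B cultures, and its part in that difference cannot be told apart from genotype. Notch1, the receptor that drives T cell fate, differed by -2.48 and -2.83. Cd28, a T cell costimulator, was at least 31.9-fold lower than in EBF-/- cells and at least 23.4-fold lower than in E2A-/- cells. Csf1r, the M-CSF receptor of macrophages, differed by -4.45 from E2A-/- cells on the log2 scale (limma adjusted p = 0.0139) and did not pass against EBF-/- cells (a difference of 1.25, limma adjusted p = 0.281).

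Ccr2, a chemokine receptor, differed by -4.21 and -5.87, Itgal, an integrin chain, by -2.55 and -2.44, and Ly6a, encoding the progenitor antigen Sca-1, by -1.72 and -4.75. Grap2, an adaptor of T cell receptor signalling, passed in neither comparison. The gene higher than in E2A-/- cells was Xbp1, a factor of antibody-secreting cells (1.09, limma adjusted p = 0.0094), which was picked out after its value was seen. Csf1r is also on the myeloid marker list, Cd28 on the T cell list, and Irf4, Irf8 and Spib are on the list of activated genes as well as on another. Cd79a and Blnk are on the list of activated genes and on the pro-B marker list, so these lists are not separate evidence. Xbp1 and Jchain are also on a plasma cell marker list, whose sums are not given here.

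**Figure D2:**
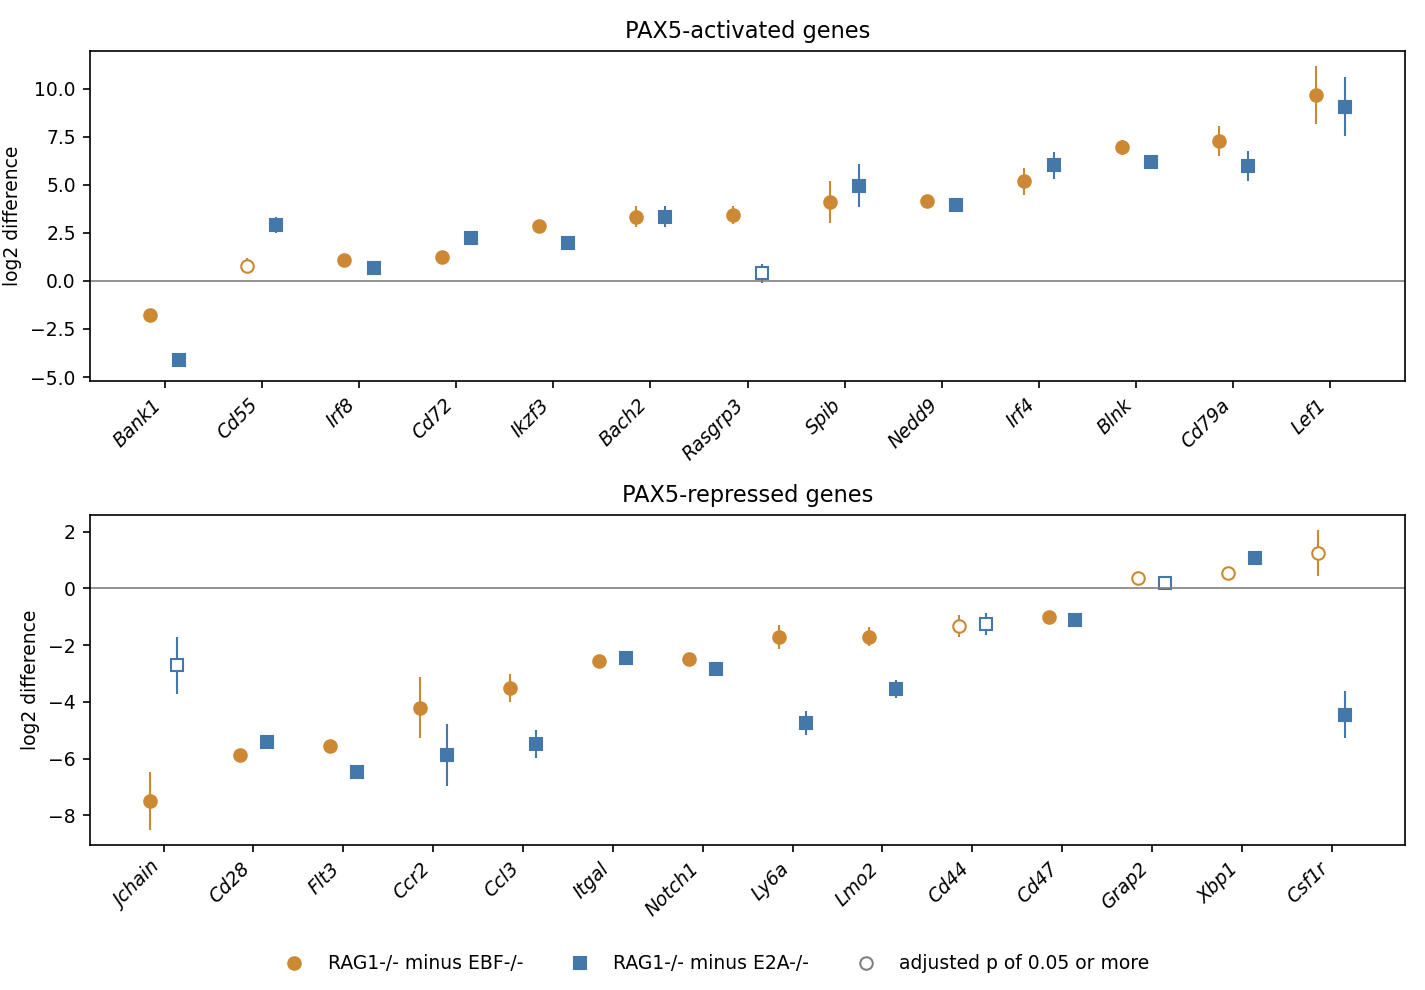
Difference in normalized log2 signal (vertical axis) of RAG1-/- cells from EBF-/- cells (circles) and from E2A-/- cells (squares) for 13 of the 14 kept genes that PAX5 is known to activate (top) and 14 that it is known to repress (bottom), with bars of 1 SE and open symbols where the adjusted p was 0.05 or more. In the top panel Bank1 is the gene with both differences below 0; in the bottom panel Grap2 and Xbp1 are the genes with both above 0.

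In EBF-/- against E2A-/- cells fewer genes of these lists passed, and members moved both ways. Of the 14 kept activated genes 1 was higher (Cd55) and 2 were lower (Bank1 and Rasgrp3, the latter named after its value was seen), with a median of -0.50 against -0.01 for all genes. Of the 14 repressed genes 1 was higher and 4 were lower, with a median of -0.26, beside the 12.6% and 11.6% of all genes. The higher one was Jchain, the joining chain of secreted antibodies (4.78), also named after its value was seen, and Csf1r (-5.70) and Ly6a (-3.03) were among the lower ones. Without E2A-/- replicate 1 the calls in both lists changed, and the medians were 0.07 and -0.26.

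The partners through which PAX5 and OCA-B act had smaller median differences than the activated genes. ETS1, which binds DNA together with PAX5, had a transcript 2.20 above EBF-/- and 4.95 above E2A-/- cells. Of the Groucho-family corepressors, Tle1 was 2.02 and Tle4 0.69 above EBF-/- cells, and Tle3 did not pass. Of all 7 PAX5 partners, 4 were higher and none lower than in EBF-/- cells (median 0.69), beside 21.2% and 22.6% of all genes. Against E2A-/- cells 3 were higher and 1, Daxx, lower (median 0.36), beside 22.8% and 23% of all genes. Pou2f1, encoding OCT1, was 0.74 and 1.10 higher in RAG1-/- cells, and Pou2f2, encoding OCT2, was 3.65 higher than in EBF-/- cells (limma adjusted p = 0.0326) but 0.84 above E2A-/- cells (limma adjusted p = 0.499).

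Siah1a and Siah1b, encoding ubiquitin ligases that target OCA-B, passed in neither comparison. Spib, encoding an ETS factor, rose by 4.10 and 4.95, Cxcr5, a follicle-homing receptor, by 2.54 and 3.66, and Btk, a kinase below the B cell receptor, by 0.84 and 0.58. In all, 5 of 7 genes tied to OCA-B were higher than in EBF-/- cells (median 0.84), beside 21.2% of all genes. Against E2A-/- cells 4 of 7 were higher (median 0.84), beside 22.8% of all genes, and none was lower in either comparison. Without E2A-/- replicate 1 both lists lost a call against E2A-/- cells, and the medians were 0.51 (PAX5 partners) and 1.12 (genes tied to OCA-B). Of the 9 PAX genes only Pax2 and Pax5 were kept, and Pax2 passed in no comparison. Of the 3 POU2 genes Pou2f3 was not kept.

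The genes nearest to each profile over the 6 samples were found by the root-mean-square distance between log2 values centred on each gene's own mean. Nearest to Pax5 was Cd79a (distance 0.15), followed by Rarres1 (0.31), Atp6v0e2 (0.35), Tmem132e (0.37), Pkp3 (0.39) and Lgr5 (0.39). Nearest to Pou2af1 were Cplx2 (0.70), Igll1 (0.87), Arl5c (0.88), Grb7 (0.96), Vpreb3 (1.02) and Lef1 (1.22). Igll1 and Vpreb3 encode surrogate light chain components or relatives of pro-B cells. In the EBF-/- samples and E2A-/- replicate 2 most of these genes were at or near background. The distance between Pax5 and Pou2af1 themselves was 2.60.

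For the ChIP-seq lists, the gene bodies were placed in mm8 from the 3′-most probe base and the RefSeq gene length. Pax5 (185947 bases) came to chr4:44546164-44732110 on the minus strand and Pou2af1 (26390 bases) to chr9:50965903-50992292 on the plus strand. As a check, the RAG1-/- H3K4me3 peak upstream of Pax5 lay 45899 bases from the placed Pax5 start, and RefSeq puts the start of the next gene, Zcchc7, 45864 bases away. RefSeq lists no other protein-coding gene within 20 kb of either gene body. Noncoding genes overlap Pax5: 5730488B01Rik (5.58 to 7.89 kb from the Pax5 5′ end), Gm12462 (24.79 to 29.48 kb) and Mir5120 (103.13 to 103.2 kb). By these distances the peaks described below at 5.63 kb lie at the edge of 5730488B01Rik. Scores are the authors' peak scores and rank peaks only within their own list.

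In RAG1-/- cells E2A, EBF1 and FOXO1 peaks met inside the 5′ part of Pax5. An E2A peak of score 46 lay 4.86 kb inside the placed start (chr4:44727150-44727349) and overlapped an EBF1 peak of score 13. A second E2A peak, of score 18, lay at 5.63 kb (chr4:44726383-44726582) and overlapped an EBF1 peak of score 10 and a FOXO1 peak of score 8. These were the only EBF1 and FOXO1 peaks in the Pax5 window. The first E2A peak was among the 5.06% of its list that scored as high. In the whole lists, 5.75% of 11846 E2A peaks overlapped an EBF1 peak, which is 48.6% of the 1402 EBF1 peaks. E2A peaks that overlapped both an EBF1 and a FOXO1 peak numbered 65, or 0.549%.

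The other 4 E2A peaks of RAG1-/- cells at Pax5 lay 18.19 kb upstream (score 15) and 30.57 (14), 39.81 (23) and 96.49 kb (10) inside the gene. A count of 6 or more was found in 4.08% of the 11626 tiles of the same length that cover the genome, and 2 or more EBF1 peaks in 1.82%. H3K4me1, a mark of enhancers, had peaks 18.62 and 4.14 kb upstream and at 96.43 kb, of which the first and last overlapped E2A peaks. H3K4me2 peaks lay 17.84 kb upstream and at 30.26 and 46.55 kb.

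At the placed Pax5 start itself no H3K4me3 peak was listed, although this mark of active promoters was profiled in cells with high Pax5 transcript. The only RAG1-/- H3K4me3 peak in the window lay at 37.52 kb with a score of 25, and 90.9% of that list scored as high. No H3K9/14ac peak, a mark of active chromatin, was listed within 20 kb, and the nearest lay 45.98 kb upstream. Of tiles of this length 42.6% held a peak of that list. An H3K27me3 peak, a Polycomb mark, lay at 46.02 kb (score 19). CTCF had 12 peaks, the nearest 0.27 kb upstream of the start, and 5.07% of tiles held as many. A missing peak says only that none was listed.

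EBF-/- cells had a different set. Their E2A list held no peak in the Pax5 window, and the nearest lay 543.14 kb away, beyond the 3′ end. Only 22.2% of tiles of this length held a peak of that list. That list was shorter (4531 peaks), and of all RAG1-/- E2A peaks 17.1% overlapped one of its peaks, against 0 of 6 at Pax5. EBF-/- H3K4me2 peaks lay 2.21 kb upstream and at 6.62, 30.47 and 46.67 kb, and the latter pair overlapped RAG1-/- H3K4me2 peaks, as did 62.4% of the EBF-/- list. H3K4me1 had 1 peak, at 145.62 kb, and none of the 3 RAG1-/- peaks overlapped it, where 12.1% of the RAG1-/- list overlapped an EBF-/- peak. H3K4me3 had 1, at 184.94 kb near the 3′ end, with a score of 11. H3K27me3 and H3K9/14ac had none, where 10.1% and 42% of tiles of this length held a peak.

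**Figure D3:**
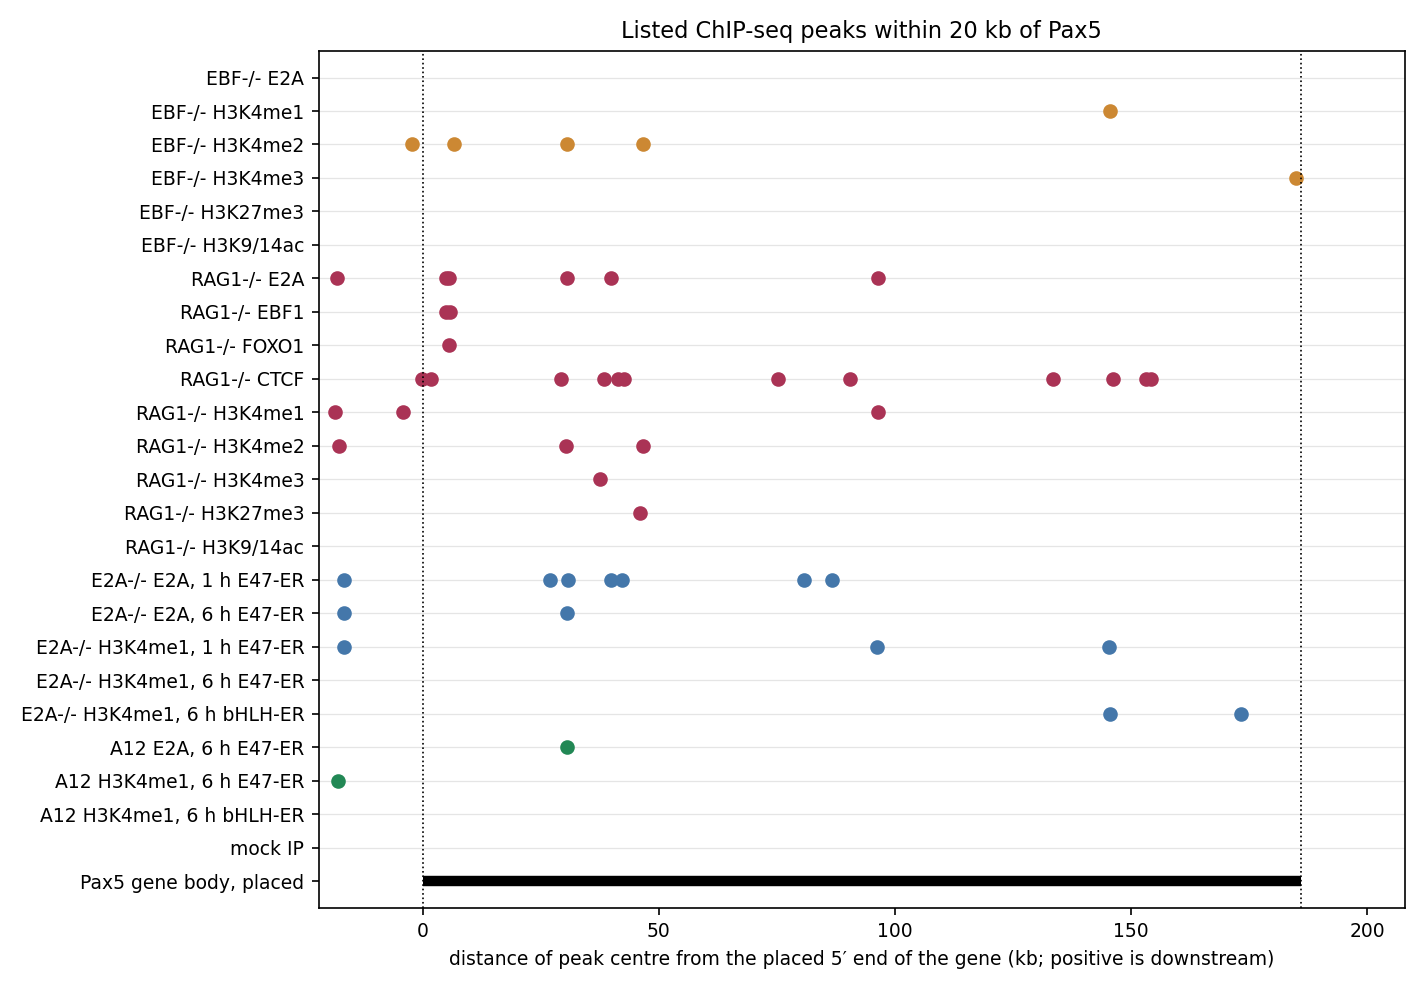
Centres of listed peaks (points) within 20 kb of Pax5 in each of 24 lists (rows) by distance from the placed 5′ end in kb (horizontal axis), with the gene body as a bar. E2A, EBF1 and FOXO1 points of RAG1-/- cells coincide near 5 kb, where no list of another cell type has an E2A point; no point of the mock list lies in the window.

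When E47-ER was switched on in E2A-/- cells, the E2A antibody listed 7 peaks at Pax5 after 1 h and 2 after 6 h, from lists of 26792 and 15386 peaks. Of the whole 1 h list 46.3% overlapped the 6 h list, against 2 of 7 at Pax5. Both 6 h peaks, at 30.62 kb and 16.73 kb upstream, overlapped 1 h peaks, as 80.7% of the 6 h list did. None of the 7 lay at the site near 5 kb, and 2 of the 6 RAG1-/- E2A peaks overlapped a 1 h peak, at 30.65 and 39.79 kb, where 37.2% of the RAG1-/- list did. The site near 30.6 kb was also listed for E47-ER in A12 cells (score 6, the lowest of that list) and carried H3K4me2 peaks in EBF-/- and RAG1-/- cells. It was thus listed in 4 of the 5 E2A lists, all but that of EBF-/- cells.

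H3K4me1 had 3 peaks at Pax5 after 1 h of E47-ER, at 145.36 and 96.25 kb and 16.62 kb upstream, none after 6 h, and 2 after 6 h of bHLH-ER, at 145.53 and 173.18 kb. The upstream 1 h peak overlapped E47-ER peaks of both times. The peak near 96 kb overlapped the H3K4me1 and E2A peaks of RAG1-/- cells, and that near 145 kb the EBF-/- peak. Of the whole 1 h H3K4me1 list 33.6% overlapped the 6 h list. In A12 cells E47-ER had 1 H3K4me1 peak, 17.88 kb upstream, which overlapped H3K4me1, H3K4me2 and E2A peaks of RAG1-/- cells, and bHLH-ER had none.

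Pou2af1 had fewer peaks, but with marks at its start. In RAG1-/- cells an E2A peak of score 66 lay 0.47 kb upstream of the placed start (chr9:50965339-50965538) and ranked 167 of 11846. An H3K4me3 peak of score 248 lay at 0.60 kb and an H3K9/14ac peak of score 95 at 0.52 kb, inside the gene, and these overlapped each other. The share of their lists scoring as high was 17.6% and 8.41%. By this placement the E2A peak lies just upstream of the promoter bases printed above.

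None of these 3 RAG1-/- peaks overlapped a peak of the same antibody in EBF-/- cells. Over the whole RAG1-/- lists, 17.1% of E2A, 66.0% of H3K4me3 and 80% of H3K9/14ac peaks did. In EBF-/- cells E2A, H3K4me1, H3K4me3, H3K27me3 and H3K9/14ac had no peak within 20 kb. Of tiles as long as this window 8.87%, 15.2%, 17.1%, 3.18% and 23.5% held a peak of these lists, so 0 is the common count for each. H3K4me2 had 1 peak, at 25.45 kb near the 3′ end (score 31). RAG1-/- E2A peaks also lay 18.68 kb upstream (score 17) and at 12.27 kb (score 11), and 3 or more were found in 2.99% of 39599 tiles of the same length. Pou2af1 had no EBF1, FOXO1 or CTCF peak within 20 kb, and EBF1 and FOXO1 had none within 50 kb. Of tiles as long as the Pou2af1 window only 3.17% held an EBF1 peak and 3.59% a FOXO1 peak, so a count of 0 is the common one. The nearest EBF1 peak lay 780.2 kb away.

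E47-ER left no E2A peak at Pou2af1 in E2A-/- cells at either time, where 24.7% (1 h) and 17.6% (6 h) of tiles of this length held any. The nearest lay 204.5 kb upstream after 1 h and 180.54 kb upstream after 6 h. In A12 cells the E47-ER list had a peak 18.7 kb upstream (chr9:50947107-50947306) of score 46, which ranked 79 of 17030 and overlapped the RAG1-/- E2A peak there. A bHLH-ER H3K4me1 peak of A12 cells lay at 38.94 kb, downstream of the gene. No H3K4me1 peak was listed within 20 kb in EBF-/-, RAG1-/- or E2A-/- cells. For RAG1-/- cells this rests on the window's edge: the nearest H3K4me1 and H3K4me2 peaks lay 22.81 and 22.8 kb upstream, and windows of 50 kb held 4 and 5.

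**Figure D4:**
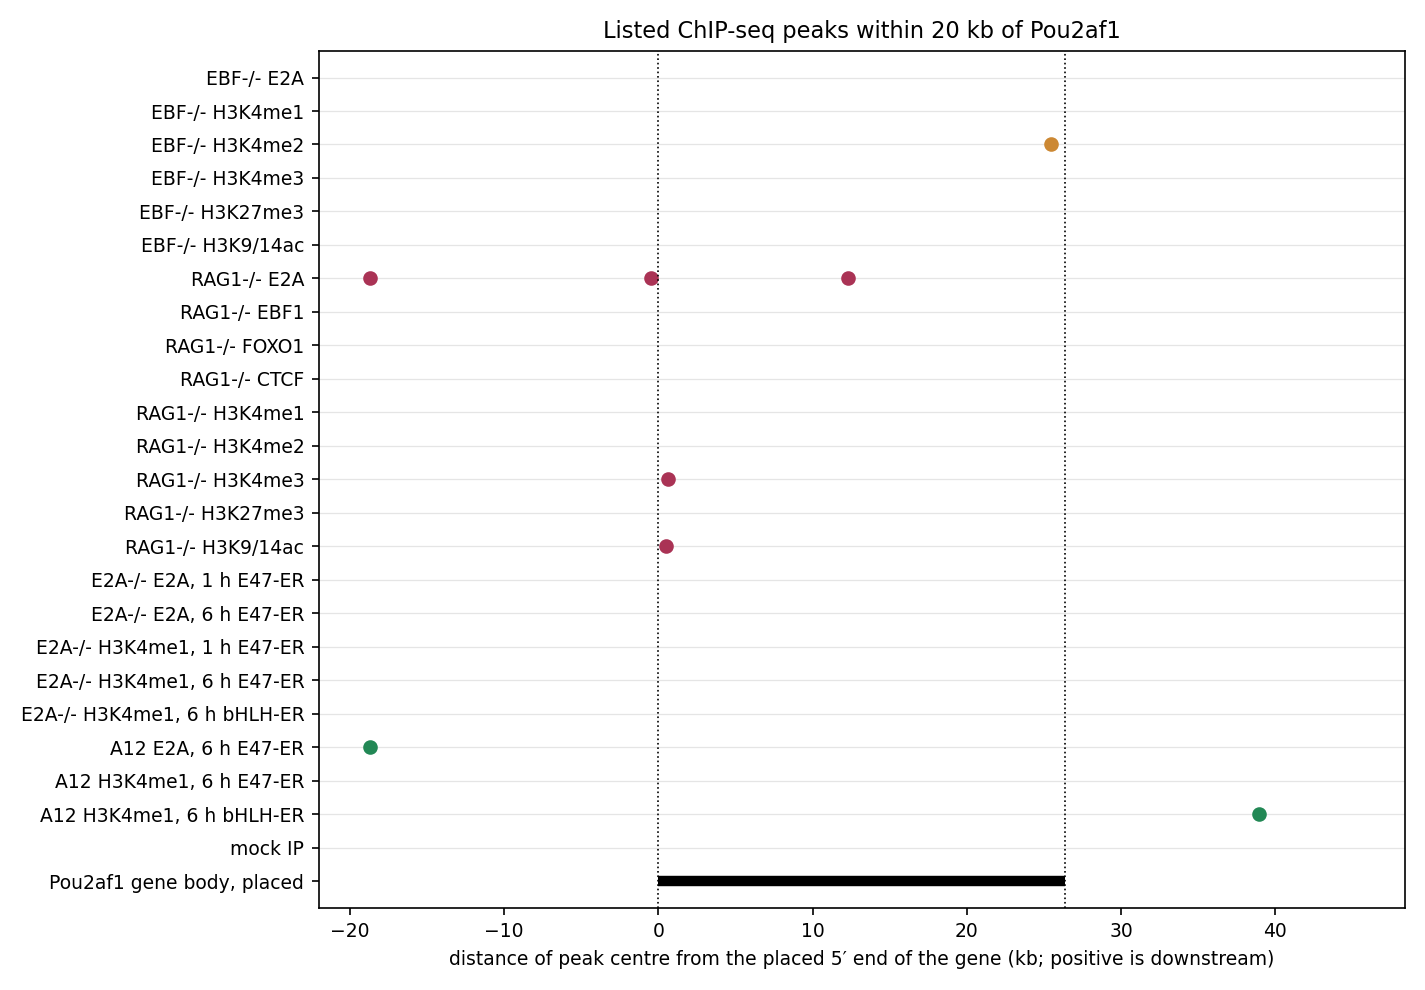
Centres of listed peaks (points) within 20 kb of Pou2af1 in each of 24 lists (rows) by distance from the placed 5′ end in kb (horizontal axis), with the gene body as a bar. The E2A, H3K4me3 and H3K9/14ac points of RAG1-/- cells lie between 0.47 kb upstream and 0.60 kb downstream of the start, where no other list has a point.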

How the data were processed

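Per the file headers, Agilent Feature Extraction 9.5.3.1 gave the processed intensity that the authors deposited, with background subtracted and dyes normalized within each array. The deposited log10 ratio of the channels was made by the same software, per the file headers, and was not tested here. The 6 samples lay on 4 two-colour arrays, each read from its own dye channel. Signals were put on a log2 scale and quantile normalized, and 22133 probes well above background in both samples of a group were kept; the brightest stood for its gene. All 6 samples entered 1 limma 3.58.1 fit (R 4.3.3) with group and dye, array as a random block (correlation -0.026, reused in alternatives) and a trended prior, with Benjamini-Hochberg adjustment over 12788 genes at 0.05. SEs and p-values draw on all 3 groups. A group with no sample above background has a bound only ("at least"), against the higher of the probe's signal and the lowest signal above background. The fit was tested on simulated data, where calls on changed genes had the simulated direction. Those data had independent normal noise without a dye effect, shared arrays or a background floor. The test therefore does not bear on dim probes or on outlying replicates.

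Peak lists were made with HOMER on mm8, per the submitters' processing notes; column 5 is the authors' score, of unstated scale. Peaks overlap by at least 1 base. Members and gene lists were chosen with earlier results of these data known; genes named are the first 8 of each list whose role is stated (1 is not reported here) and the 6 nearest profiles. Promoters and gene lengths are from RefSeq tables (GRCm38.p6); protein and mm8 sequence was not used here. Depth of the ChIP libraries is unknown.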

Additional observations from a re-analysis of the deposited data

How the results depend on the processing

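With 2 samples per group and 2 residual degrees of freedom, precision is limited by the number of arrays. The 18 alternatives kept the direction and the call of Pax5 in both RAG1-/- comparisons, with differences of 5.661 to 8.207 over EBF-/- and 4.548 to 7.203 over E2A-/-. Pou2af1 over E2A-/- kept its value of 9.99 but lost its call with no filter on dim probes (limma adjusted p = 0.0665), where 21229 genes were tested, and with a prior without trend (0.0595). Leaving out single samples gave 9.731 to 14.31 for Pou2af1 over EBF-/-, 5.745 to 14.16 over E2A-/-, -6.22 to 2.194 for EBF-/- minus E2A-/-, and -2.516 to -0.1221 for Pax5 in that contrast; the value of 2.194, without E2A-/- replicate 1, is the reversal. Genes called with single samples left out ranged from 2306 to 6067 for RAG1-/- against EBF-/- (5602 with all), from 3341 to 6502 against E2A-/- (5864 with all), and from 448 to 5353 for EBF-/- against E2A-/- (3098 with all). Testing every probe gave 8411 calls against EBF-/-. For EBF-/- against E2A-/- there were 1961 calls with no filter, 2010 with a prior without trend and 5464 with only these groups in the fit; the causes were not tested. The replicate numbers are not stated to pair samples, and deviations of same-numbered samples correlated at -0.40, 0.17 and 0.02. With the replicate block and dye, Pou2af1 differed by 12.02 and 10.01, Pax5 by 7.339 and 6.025, no call of either gene changed, and EBF-/- against E2A-/- had 5183 calls.

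Of the peak counts, 6 of 48 moved by over 1.5 times with the gene body alone, 15 of 48 with windows of 50 kb and 26 of 86 counts and overlaps with only the peaks of each list at or above its median score. All 38 overlap counts were the same with an overlap of 50% of the shorter peak or with centres within 500 bases. The list results without E2A-/- replicate 1 were chosen after seeing the data.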
